A study of Mus musculus with 9 samples.

Results

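Expression in mouse granulosa cells infected with an adenovirus that expresses WNT4 was compared with expression in cells infected with an adenovirus that expresses enhanced GFP, the control virus. The comparison covers the 3 arrays titled as granulosa cells with Wnt4 and the 3 titled as granulosa cells with GFP, 6 of the 9 arrays of the study, and all 45037 probe sets of the array apart from the manufacturer's controls. The other 3 arrays came from cells given an adenovirus for Cre recombinase. They entered the estimate of the spread and are given beside the results. All cells came from mice aged 20 to 26 days, 48 h after an injection of equine chorionic gonadotrophin to make follicles grow. The labels describe the mice as being of various genotypes and do not say which genotype went into which array, so neither group can be given an allele. Cells were collected by needle puncture of the ovaries, attached overnight in medium with 1% serum at about 50% density, and infected for 24 h without serum at a multiplicity of infection of about 50, with more than 80% of cells infected. The sources used here do not give the promoter of the WNT4 virus. The labels call the replicates biological and do not say which animals or dishes each came from, so p-values reflect how far these arrays differ among themselves, which may be technical.

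WNT4 is a secreted ligand of the WNT family that is needed for the formation of the female reproductive tract and the ovary. WNT ligands bind Frizzled receptors. In the canonical branch this stops the destruction complex from degrading beta-catenin, which then enters the nucleus and joins TCF/LEF factors, while other branches work through small GTPases, JNK and calcium. Granulosa cells surround the oocyte, respond to FSH by making oestradiol and growth factors, and become progesterone-producing luteal cells after the ovulatory surge of LH. The comparison asks what extra WNT4 does to gene expression in these cells.

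Values are log2 RMA values, and a difference of 1 is a 2-fold change. Each difference is the mean of the arrays labelled WNT4 minus the mean of the arrays labelled GFP, with the standard error of the limma fit (n = 3 arrays per group). "Called" means a Benjamini-Hochberg adjusted p under 0.05 over all probe sets, and other p-values are limma's before adjustment.

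Transcripts of the Wnt4 gene did not settle the labels. The brighter of the Wnt4 probe sets read 9.93, 9.16 and 9.13 on GFP 1, 2 and 3 and 8.97, 9.89 and 9.16 on WNT4 1, 2 and 3, a difference of -0.07 ± 0.34. The other probe set read 9.13, 7.57 and 8.27 with GFP and 9.91, 9.62 and 8.36 with WNT4, a difference of 0.97 ± 0.49. The groups overlapped on both. The Cre arrays had the highest mean on both, at 11.25, 10.47 and 10.18 on the brighter probe set and 10.01, 9.81 and 9.05 on the other, and WNT4 minus Cre was -1.30 ± 0.34 and -0.33 ± 0.49. Axin2, a target of beta-catenin, also had its highest mean on the Cre arrays: it read 7.42, 6.78 and 7.24 with GFP, 9.27, 7.94 and 8.47 with Cre and 8.14, 7.39 and 7.87 with WNT4. None of these WNT4 minus Cre differences passed limma's adjustment (adjusted p = 0.773 to 0.986). Whether either probe set lies within the transcript made by the virus is unknown here, and one outside it would check nothing. All directions are therefore those of the arrays as labelled. Granulosa markers were present: 18 of 19 measured granulosa markers had a GFP mean of at least 6, and their mean level was 10.07 to 10.43 on the GFP arrays and 9.77 to 10.57 on the arrays labelled WNT4.

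The arrays labelled WNT4 were unlike each other. Of 18193 genes, each read from its brightest probe set, WNT4 1 had 826 that exceeded the GFP mean at least 2-fold, WNT4 2 had 86 and WNT4 3 had 568, while 147, 108 and 174 were at least 2-fold below it. The GFP arrays set against the other 2 GFP arrays gave 36, 92 and 54 above and 161, 76 and 5 below. None of the 9 arrays, GFP and Cre included, had another of its own label as its most correlated array: WNT4 1 and WNT4 2 were closest to Cre 2 (Pearson's r over probe sets 0.9886 and 0.994) and WNT4 3 to Cre 3 (0.9952). Of the 9 arrays WNT4 1 had the largest 3' to 5' difference of the beta-actin and Gapdh control probe sets (1.38 and 2.17, against 1.08 to 1.28 and 1.77 to 1.80 with GFP), a sign of RNA quality, and its part in the results was not tested.

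Few probe sets passed the test over the whole array, while many differed before adjustment. limma called 7 of 45037 probe sets (0.0155%), 6 higher and 1 lower. At p under 0.05 before adjustment 13.0% differed (5870), of which 4109 were higher (9.12%) and 1761 lower (3.91%). All 3 arrays of one group lay above all 3 of the other at 14.8% of probe sets. With no difference at all the shares would be near 0.05 at p under 0.05 and near 0.1 for lack of overlap. After quantile normalization 6026 probe sets did not overlap, 3042 higher and 2984 lower. At adjusted p under 0.1 there were 32 probe sets (0.0711%). At least 2-fold differences were seen at 439 probe sets that were higher (0.975%) and 143 that were lower (0.318%).

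The direction of these differences followed how bright a probe set was. Probe sets with a mean under 6, 58.6% of the total, had a median difference of -0.0434. The medians were 0.0376 at means of 6 to 8, 0.186 at 8 to 10 and 0.313 at 10 and above. Counted over 1 probe set per gene, 12.6% of genes were higher and 4.46% lower at p under 0.05, where 7637 genes of mean under 6 gave 1.24% and 4.79%. The shares were 9.37% and 6.14% at means of 6 to 8, 20.5% and 3.62% at 8 to 10, and 37.4% and 2.5% at 10 and above. After quantile normalization, which gives every array the same distribution of values, the medians of the 4 bands lay between -0.0244 and -0.00456. Gene groups made of bright genes are therefore given below with their quantile-normalized median as well, which in several groups lies at 0.

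**Figure D1:**
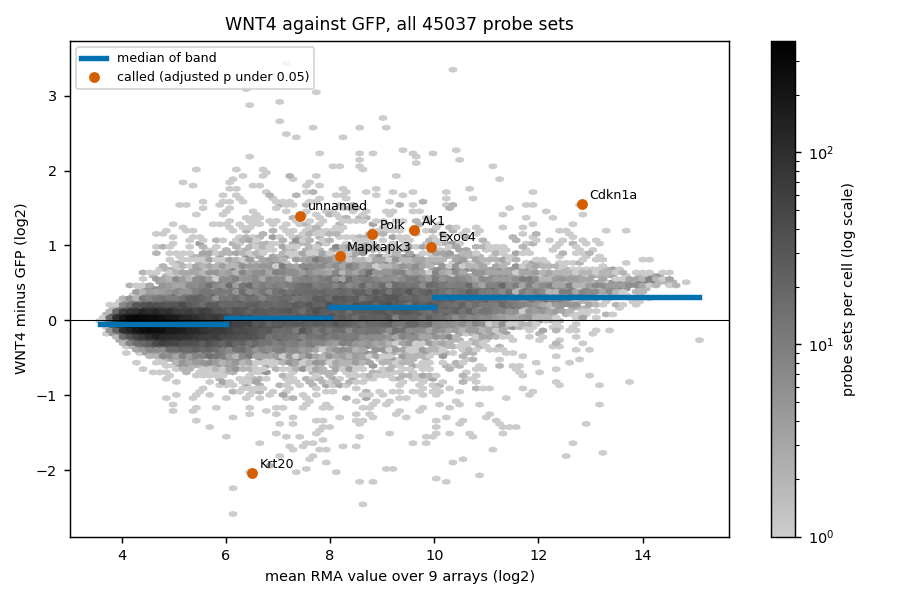
Difference between the arrays labelled WNT4 and GFP (log2, vertical axis) against the mean RMA value over 9 arrays (log2, horizontal axis) for 45037 probe sets, shaded by the number of probe sets in each cell on a log scale. Blue bars are the medians of 4 brightness bands and climb from -0.0434 to 0.313, and orange points are the 7 called probe sets, of which Krt20 alone lies below 0.

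The called probe sets separated the groups with little spread inside them, which the call itself selects for. Krt20, a keratin found in epithelia, read 7.44, 7.46 and 7.80 with GFP and 5.51, 5.26 and 5.82 with WNT4, and fell by 2.04 ± 0.17 on the log2 scale. Cdkn1a, whose product p21 halts the cell cycle, read 12.26, 12.03 and 11.90 against 13.82, 13.36 and 13.64 and rose by 1.55 ± 0.16. Its other probe set read 10.67, 10.38 and 10.11 against 12.82, 12.19 and 11.79, a difference of 1.88 ± 0.27 with adjusted p = 0.1. No value of either group reached the other for these genes. Ak1, an adenylate kinase, read 9.15, 8.89 and 9.05 against 10.34, 10.21 and 10.15 (1.20 ± 0.11). Polk, a polymerase that copies past damaged bases, read 8.47, 8.16 and 8.23 against 9.55, 9.27 and 9.49 (1.15 ± 0.12). Mapkapk3, a kinase downstream of p38, read 7.81, 7.68 and 7.71 against 8.62, 8.52 and 8.63 (0.85 ± 0.08). On each of these probe sets the gap between the groups was larger than the range within either, which their selection favoured. Other probe sets of the last 3 genes differed less. A second bright Mapkapk3 probe set differed by 0.47 ± 0.11, and dim ones of Ak1 and Polk by -0.00 ± 0.12 and 0.28 ± 0.16.

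Exoc4, a subunit of the exocyst, which tethers secretory vesicles to the plasma membrane, was called through 1 of its 5 probe sets (9.50, 9.39 and 9.52 against 10.53, 10.29 and 10.54, a difference of 0.98 ± 0.10). Its other bright probe sets differed by 0.76 and 0.63, and the remaining ones by 0.49 and -0.15. The last called probe set has no gene name here (6.77, 6.56 and 6.65 against 8.29, 7.79 and 8.10, a difference of 1.40 ± 0.14). Adjusted p was 0.0341 for all 7, and leaving out a single array moved the number called from 0 to 748. It was 748 without WNT4 2, of which 683 were higher, with all 7 among them. It was 9 without GFP 1, of which 7 were lower, and 0 without WNT4 1, WNT4 3, GFP 2, GFP 3 or any single Cre array.

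On all 7 called probe sets the 3 Cre arrays lay between the groups. Krt20 read 6.20, 6.56 and 6.56 there, Ak1 9.75, 9.58 and 9.48, and Cdkn1a 12.67, 12.83 and 13.10. WNT4 minus Cre was -0.91 ± 0.17 for Krt20, 0.63 ± 0.11 for Ak1, 0.74 ± 0.16 for Cdkn1a and 0.72 ± 0.12 for Polk, each with adjusted p = 0.773 in limma's test of WNT4 against Cre. That comparison called 0 probe sets, with 2808 (6.23%) at p under 0.05 before adjustment. Both virus groups were set against the same GFP arrays, so their differences from GFP are not independent.

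Past the called genes, those with the largest differences were taken among 901 genes with a mean of at least 6, p under 0.01 and no overlap between the groups, of which 760 were higher and 141 lower. None of the genes in the next paragraphs passed the adjustment except Krt20. Nt5e had the largest difference of the 760. It encodes the ecto-enzyme CD73, which makes adenosine from AMP outside the cell, and read 5.73, 4.76 and 5.40 with GFP against 9.66, 7.97 and 8.56 with WNT4, a difference of 3.43 ± 0.44 (adjusted p = 0.0691). The other Nt5e probe sets did not share this and differed by 0.02 and -0.03. Tmem229a, a gene for a membrane protein, read 5.65, 5.43 and 5.70 against 8.95, 7.77 and 8.80 (2.91 ± 0.38), and its other probe sets were at 2.89 and -0.09. Rasgrf2, which activates Ras and Rac, read 7.23, 6.54 and 6.99 against 9.80, 8.64 and 8.95 (2.21 ± 0.32). On these 3 genes WNT4 2 stood lowest of its group, and lack of overlap with GFP was part of their choice.

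Klf4, a zinc-finger transcription factor, read 8.08, 7.55 and 7.84 with GFP and 11.38, 9.24 and 10.51 with WNT4 (2.55 ± 0.51), and its second probe set differed by 1.84. The other 8 genes of the 12 with the largest positive differences belong to the interferon response or to the response to unfolded protein. Usp18, Rsad2, Rtp4 and Ifitm3 are interferon-induced, and Ddit3, Trib3, Herpud1 and Creld2 are induced by stress of the endoplasmic reticulum. WNT4 1 was the highest array for all 8. Rsad2, the antiviral protein viperin, read 6.74, 6.40 and 6.28 against 11.22, 8.05 and 9.25, and Creld2, a chaperone-like protein of the endoplasmic reticulum, read 9.52, 10.08 and 9.94 against 13.29, 10.71 and 11.92. Without WNT4 1 their differences were 2.18 and 1.47, against 3.04 and 2.13 with it.

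Promoters of 4 genes, Creld2, Herpud1, Rsad2 and B2m, are shown because they hold short motifs named after these responses, so a match was the reason for their choice. They are the 250 bases before the RefSeq gene start (assembly GRCm38.p6), 5′ to 3′ on the gene's strand, with the matching letters in capitals. The motifs searched on both strands were the endoplasmic reticulum stress element (CCAAT, any 9 bases, CCACG), its second form (ATTGG, any 1 base, CCACG), the core of the interferon-stimulated response element (GAAA, any 2 bases, GAAA) and the TCF/LEF motif (CTTTGAT).
Creld2, chr15:88819396-88819645, plus strand: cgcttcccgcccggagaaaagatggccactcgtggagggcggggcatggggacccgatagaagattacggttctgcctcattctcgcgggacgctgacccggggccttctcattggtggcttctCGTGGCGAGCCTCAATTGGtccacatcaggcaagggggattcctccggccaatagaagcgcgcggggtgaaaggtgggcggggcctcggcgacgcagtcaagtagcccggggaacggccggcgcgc
Herpud1, chr8:94386179-94386428, plus strand: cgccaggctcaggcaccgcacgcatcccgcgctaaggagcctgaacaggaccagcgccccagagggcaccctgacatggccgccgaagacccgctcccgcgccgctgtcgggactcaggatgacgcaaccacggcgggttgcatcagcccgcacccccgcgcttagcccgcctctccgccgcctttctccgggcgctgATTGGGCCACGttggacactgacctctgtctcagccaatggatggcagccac
Rsad2, chr12:26456453-26456702, minus strand: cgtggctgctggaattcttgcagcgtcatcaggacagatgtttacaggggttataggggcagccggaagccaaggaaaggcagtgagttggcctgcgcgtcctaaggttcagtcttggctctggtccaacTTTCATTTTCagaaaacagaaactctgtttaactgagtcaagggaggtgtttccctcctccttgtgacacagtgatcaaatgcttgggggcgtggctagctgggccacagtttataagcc
B2m, chr2:122147437-122147686, plus strand: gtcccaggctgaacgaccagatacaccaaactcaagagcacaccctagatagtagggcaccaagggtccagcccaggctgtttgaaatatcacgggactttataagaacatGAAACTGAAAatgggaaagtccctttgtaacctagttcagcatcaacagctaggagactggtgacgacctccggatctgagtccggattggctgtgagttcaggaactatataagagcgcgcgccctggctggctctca

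The Creld2 match lies at -126 to -108 from the gene start, the Herpud1 match at -52 to -42, the Rsad2 match at -120 to -111 and the B2m match at -139 to -130. Among 32851 promoters of the table the first stress element matched in 37 (0.113%), its second form in 10 (0.0304%), the interferon core in 978 (2.98%) and the TCF/LEF motif in 1053 (3.21%). Of the 29 genes that were called or among the largest differences, 25 had a promoter in the table. The interferon core matched Rsad2, Mapk10 and Mapkapk3, the TCF/LEF motif matched Kcnk2, and each stress element matched 1 gene, Creld2 or Herpud1. B2m is not among the 29 genes and was added, also for its match, as the antigen-presentation gene with the brightest signal among those described below. A match is a stretch of letters and shows no binding.

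**Figure D2:**
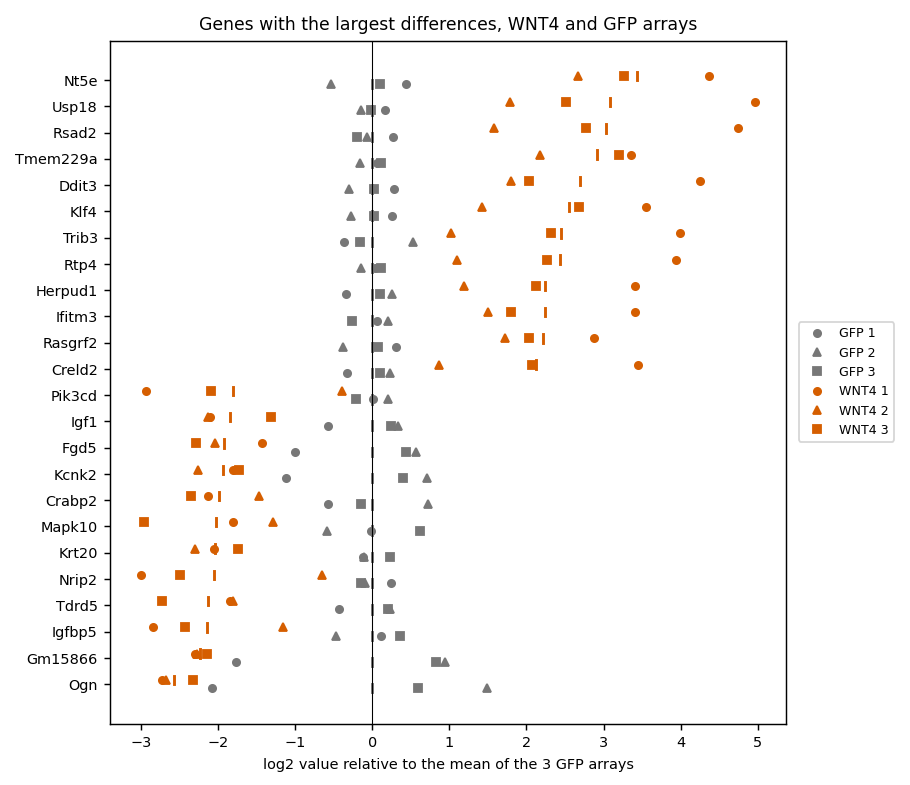
Values of the 12 genes with the largest positive and the 12 with the largest negative differences on each GFP array (grey) and each array labelled WNT4 (orange), as log2 values relative to the mean of the 3 GFP arrays; vertical bars are group means and array numbers have different symbols. WNT4 1 lies highest for every positive gene, and for Ogn, Gm15866, Kcnk2 and Fgd5 the array GFP 1 lies well below GFP 2 and GFP 3.

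Among the lower genes were a growth factor, a binding protein for it and a retinoid carrier. Igf1, the insulin-like growth factor that amplifies the response of granulosa cells to FSH, read 10.75, 11.66 and 11.57 with GFP and 9.22, 9.20 and 10.01 with WNT4, a difference of -1.85 ± 0.33. Igfbp5, a binding protein for IGFs, read 11.42, 10.84 and 11.67 against 8.46, 10.15 and 8.88 (-2.15 ± 0.52), and its second probe set differed by -1.10. Crabp2, which carries retinoic acid to its nuclear receptor, read 9.59, 10.89 and 10.02 against 8.03, 8.69 and 7.81 (-1.99 ± 0.45). Lack of overlap was part of the choice of these 3 genes. WNT4 2 came within 1 of the lowest GFP array for Igfbp5 and Crabp2.

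Tdrd5, a Tudor-domain gene known from the germ line, read 9.46, 10.12 and 10.10 against 8.04, 8.08 and 7.16 (-2.13 ± 0.49). Mapk10, the kinase JNK3, read 9.24, 8.67 and 9.88 against 7.45, 7.97 and 6.30 (-2.02 ± 0.59), with another bright probe set at -1.66 and a dim one at -0.12. The low value of both on WNT4 3 had a counterpart on Cre 3, which read 7.58 for Tdrd5 and 6.84 for Mapk10, below both of the other Cre arrays. WNT4 minus Cre was -1.04 ± 0.49 for Tdrd5 and -0.72 ± 0.59 for Mapk10.

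In a second kind of lower gene GFP 1 lay near the arrays labelled WNT4, so the difference rested on GFP 2 and GFP 3. Ogn, the matrix proteoglycan osteoglycin, read 5.39 on GFP 1 and 8.96 and 8.07 on GFP 2 and 3, against 4.75, 4.80 and 5.14 with WNT4 (-2.58 ± 0.77). Kcnk2, a two-pore potassium channel, read 6.75, 8.58 and 8.27 against 6.06, 5.60 and 6.14 (-1.94 ± 0.41). Fgd5, an activator of the GTPase Cdc42, read 6.93, 8.50 and 8.37 against 6.50, 5.89 and 5.65 (-1.92 ± 0.42), and Gm15866 had the same shape. For each of these GFP 1 was the lowest GFP array and lay within 1 of the highest array labelled WNT4, and the Cre arrays were low as well, at 5.64 to 6.82 for Ogn and 6.48 to 6.87 for Kcnk2.

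For several lower genes the probe sets disagreed. The Pik3cd probe set (13.17, 13.36 and 12.95 against 10.22, 12.76 and 11.07) differed by -1.81 ± 0.53, while its other probe sets of mean at least 6 differed by -0.40 and -0.26. Nrip2 read 11.91, 11.58 and 11.52 against 8.67, 11.02 and 9.17 (-2.05 ± 0.52), with another probe set at 0.09. Fen1, a nuclease of DNA replication, had 1 probe set at -1.12 and 1 at 0.23, and Laptm5, a lysosomal protein of blood cells, had probe sets from -2.12 to 0.48. In Pik3cd, Nrip2, Fen1 and Laptm5 the lowest probe set read WNT4 2 close to the GFP arrays and WNT4 1 and WNT4 3 well below them. Their differences are therefore uncertain.

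Genes read by several probe sets were chosen by the agreement of those probe sets. No p-value was used, and lack of overlap was part of the choice. Of 2525 genes with at least 3 probe sets of mean 5 or more, 57 (2.26%) had every such probe set higher without overlap and 10 (0.396%) had every one lower. Star, the protein that brings cholesterol into mitochondria for steroid synthesis, led the 57 with 3 probe sets at 2.56, 2.05 and 1.46. Its probe set with the highest mean read 7.91, 6.45 and 6.94 with GFP and 10.24, 8.96 and 8.25 with WNT4. Stard5, another protein of the sterol-binding START family, differed by 1.38, 1.56 and 1.71, with a dim further probe set at 0.04. Pcyt1a, the rate-limiting enzyme of phosphatidylcholine synthesis, differed by 0.71 to 1.50 over 4 probe sets, and 1 of them reached adjusted p = 0.0691 (8.98, 8.67 and 9.18 against 10.53, 10.01 and 10.27). Sbsn, suprabasin, a secreted protein of epithelia, differed by 1.39, 1.64 and 1.78. Ccng1, cyclin G1, a p53 target, differed by 1.03, 1.31 and 1.32. Tpi1, whose values are given below with the hypoxia genes, differed by 1.09 to 1.30, with limma's p from 0.0691 to 0.0903. WNT4 1 stood highest in Star and Pcyt1a, and no array labelled WNT4 reached GFP on their bright probe sets.

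Igf1 headed the 10 genes with every such probe set lower, with 4 probe sets at -1.91, -1.85, -1.51 and -1.49. Bmpr1b, a type I receptor of bone morphogenetic proteins, read 10.25, 10.88 and 11.26 with GFP and 9.40, 9.24 and 9.07 with WNT4 (-1.56 ± 0.29), and its other probe sets differed by -1.22 and -0.98. Ptprd, a receptor tyrosine phosphatase, read 11.41, 11.78 and 12.05 against 10.33, 10.62 and 10.56 (-1.24 ± 0.21), with 4 of 7 probe sets bright enough to count and all lower. Masp1, a serine protease that activates complement, differed by -0.95 to -0.59 over 4 probe sets of mean at least 5. Mblac2, Hmga2 and Zc2hc1a had smaller differences, between -0.80 and -0.36. On these probe sets limma's p reached 0.187 for Mblac2 and 0.131 for Hmga2. Rai14, an actin-binding protein, reached adjusted p = 0.0691 on a dim probe set (5.69, 5.82 and 5.93 against 5.15, 5.14 and 5.0). Against Cre the differences were -1.42 ± 0.33 for Igf1, -0.70 ± 0.29 for Bmpr1b and -0.51 ± 0.21 for Ptprd, with adjusted p from 0.773 to 0.784.

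**Figure D3:**
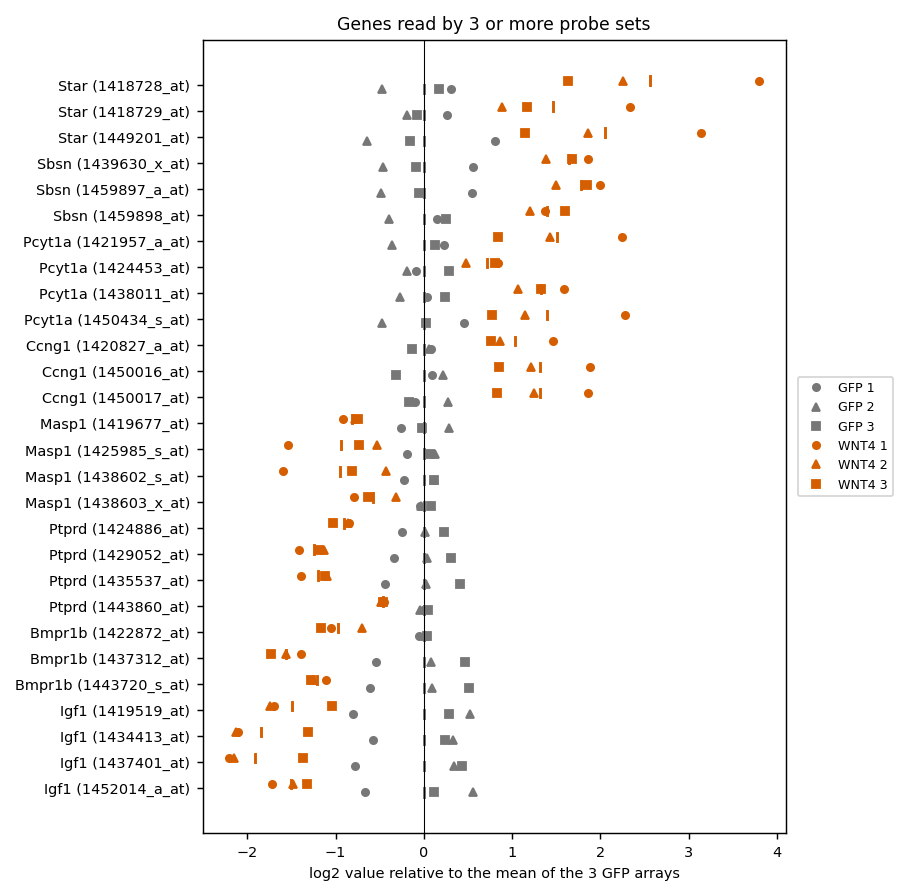
Each row is 1 probe set of Star, Sbsn, Pcyt1a, Ccng1, Masp1, Ptprd, Bmpr1b or Igf1 with a mean of at least 5; points are single arrays (GFP grey, labelled WNT4 orange) as log2 values relative to the GFP mean, and bars are group means. Differences run from 2.56 for Star to -1.91 for Igf1. The genes were chosen for having all such probe sets on the same side of 0 without overlap, so that separation was set by the choice.

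Growth factor pathways of the follicle were then read as lists, with 1 probe set per gene and counts at p under 0.05 before adjustment, where 12.6% of all genes were higher and 4.46% lower. Bone morphogenetic proteins, activin, inhibin and AMH signal through type I and II receptors and SMAD proteins. Of 36 genes of this family 4 were higher and 4 lower, with a median difference of 0.07 and of -0.15 after quantile normalization. The lower genes were Bmpr1b, the ligand Bmp2 (9.31, 10.01 and 10.04 against 8.85, 8.45 and 8.27, a difference of -1.26 ± 0.29), the inhibitory Smad6 (-1.28 ± 0.32) and the type II receptor Bmpr2 (-0.31 ± 0.13). Higher were the activin-pathway transducer Smad2 (0.51 ± 0.11), the receptors Acvr1 and Acvr2b (0.64 ± 0.18 and 0.57 ± 0.22) and Id2 (0.49 ± 0.18). After quantile normalization 2 genes of the list were higher and 7 lower. Smad6, Bmpr2, Acvr1, Acvr2b and Id2 were chosen after their values were seen.

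The IGF and insulin list held 2 higher and 4 lower genes of 19, with a median of -0.11 and of -0.32 after quantile normalization. Beside Igf1 and Igfbp5, Irs1, the adaptor that links IGF and insulin receptors to PI3 kinase, read 9.91, 10.76 and 10.77 against 9.80, 9.41 and 9.58 (-0.88 ± 0.25), and the clearance receptor Igf2r differed by -0.48 ± 0.21. Higher were Sesn2, a stress-induced brake on mTORC1 (8.27, 8.97 and 8.34 against 10.58, 9.56 and 9.32, a difference of 1.29 ± 0.35), and Foxo3 (0.89 ± 0.29). GFP 1 was the lowest GFP array for Igf1 and Irs1. Igf2r and Foxo3 were chosen after their values were seen.

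FSH acts through its receptor, the G protein subunit Gnas, cyclic AMP and protein kinase A. In this list 4 of 22 genes were higher and 3 lower, with a median of 0.21 and of 0.02 after quantile normalization. Foxo1, a transcription factor that FSH signalling switches off, read 11.46, 12.32 and 12.29 against 11.34, 10.57 and 9.96 (-1.40 ± 0.40), and its 4 probe sets ranged from -1.51 to 0.01. Pde7b, a phosphodiesterase of cyclic AMP, read 8.27, 8.86 and 9.18 against 7.63, 6.81 and 6.69 (-1.73 ± 0.39). Gnas read 12.46, 12.44 and 12.75 against 13.39, 12.88 and 13.13 (0.58 ± 0.14, or 0.18 after quantile normalization). For Foxo1 and Pde7b WNT4 1 stood closest to GFP, the reverse of the genes that were highest there.

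Notch receptors exchange signals between neighbouring granulosa cells and induce HES and HEY repressors. Of 19 genes of the list 5 were higher and 2 lower, with a median of 0.04. The 2 repressors went opposite ways: Hey1 read 8.78, 9.06 and 9.98 against 7.60, 7.74 and 8.46 (-1.34 ± 0.33) and Hes1 read 8.54, 8.18 and 8.32 against 9.10, 8.80 and 8.86 (0.57 ± 0.17). The receptor Notch1 read 7.58, 6.93 and 7.24 against 8.43, 7.75 and 8.01 (0.81 ± 0.20). Jag1, a Notch ligand chosen after its values were seen, differed by 0.67 ± 0.24. All 3 arrays labelled WNT4 lay on the same side of GFP for each of Hey1, Hes1 and Notch1, which were taken for their low p.

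Genes of the WNT pathway itself showed single differences in lists with medians near 0. Many of these genes were dim: 12 of 19 beta-catenin targets and 12 of 29 ligands and receptors had a mean under 6. Among all genes that dim, 1.24% were higher. The shares higher in the lists were 10.5% and 17.2%, near the 12.6% of all genes. Of 19 beta-catenin targets 2 were higher and 0 lower, with a median of 0.02: Apcdd1, a WNT inhibitor at the cell surface (8.99, 9.44 and 8.43 against 10.24, 9.71 and 10.14, a difference of 1.08 ± 0.24), and Bambi, a decoy receptor (6.46, 6.60 and 6.97 against 8.62, 7.59 and 7.71, a difference of 1.30 ± 0.38). The probe sets of Apcdd1 ranged from -0.06 to 1.41. Among 29 ligands and receptors 5 were higher and 1 lower, with a median of -0.06. Wnt5a, a ligand of the noncanonical branch, read 9.45, 9.43 and 9.44 with GFP and 10.77, 10.03 and 10.77 with WNT4 (1.08 ± 0.24), with its bright probe sets between 0.85 and 1.08. The receptors Fzd1 (7.52, 7.34 and 7.75 against 8.48, 8.04 and 8.84) and Fzd7 differed by 0.92 ± 0.29 and 0.58 ± 0.19. Groups were apart for these 5 genes, which were taken for their low p, and WNT4 2 was the array nearest to GFP for each.

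On the Cre arrays Bambi read 8.53, 7.14 and 8.21 and Fzd1 9.35, 8.24 and 8.99. WNT4 minus Cre was 0.02 ± 0.38 for Bambi and -0.40 ± 0.29 for Fzd1. Of 18 genes of the beta-catenin destruction complex and its corepressors 7 were higher and 0 lower, with a median of 0.24 that was 0.05 after quantile normalization. That share was 38.9% at a median level of 9.09, against 20.5% of all genes with a mean of 8 to 10. After quantile normalization 3 were higher. Tle3, a Groucho corepressor of TCF factors, read 8.41, 8.30 and 8.40 against 8.80, 8.78 and 8.88 (0.45 ± 0.08). Axin1, the scaffold of the complex, differed by 0.51 ± 0.14, and Ctnnb1, beta-catenin, by 0.48 to 0.53 over 3 probe sets, or 0.05 to 0.35 after quantile normalization.

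Of the steroid and luteal genes 42.9% and 41.2% were higher, against 12.6% of all genes. The median levels of these lists were 10.15 and 9.36. Among all genes the share was 20.5% at means of 8 to 10 and 37.4% at 10 and above. Of 14 steroid synthesis genes 6 were higher and 1 lower, with a median of 0.43, or 0.19 after quantile normalization, where 2 were higher and 2 lower. Its medians on WNT4 1, 2 and 3 lay 0.63, 0.27 and 0.18 above the GFP mean. The lower gene was Hsd17b7, which converts oestrone to oestradiol and also acts in cholesterol synthesis (11.54, 11.15 and 11.52 against 10.60, 10.91 and 9.90, a difference of -0.93 ± 0.36). In the list of 17 LH-response and luteal genes 7 were higher and 0 lower, with a median of 0.65, or 0.46 after quantile normalization. Parm1, a membrane glycoprotein, read 10.83, 10.63 and 10.59 against 11.83, 11.45 and 11.68 (0.97 ± 0.12, adjusted p = 0.0691). Cebpb, a transcription factor needed for luteinization, read 9.13, 9.09 and 9.35 against 10.37, 9.93 and 10.24 (0.99 ± 0.17). Neither overlapped with GFP, and both were taken for their low p. The prostaglandin receptors diverged: Ptger4 read 5.51, 5.73 and 6.03 against 7.46, 6.98 and 8.62 (1.93 ± 0.47), while Ptger2 read 8.68, 9.54 and 9.40 against 7.98, 7.98 and 8.71 (-0.98 ± 0.30), with WNT4 3 just above GFP 1.

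Granulosa markers had 2 genes higher and 4 lower of 19 (10.5% and 21.1%), against 12.6% and 4.46% of all genes. Their median of 0.03 was -0.36 after quantile normalization, where 0 were higher and 7 lower. Esr2, the oestrogen receptor of granulosa cells, read 6.97, 7.93 and 7.73 against 6.66, 6.23 and 6.0 (-1.25 ± 0.36). Nr5a1, the steroidogenic factor SF-1, read 9.33, 9.22 and 9.37 against 9.91, 9.66 and 9.49 (0.38 ± 0.11). The arrays labelled WNT4 stood at 0.35, -0.10 and -0.37, so WNT4 1 and WNT4 3 lay on opposite sides of GFP. In a bulk sample fewer cells of a type and less RNA per cell cannot be told apart.

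Markers of other cells that a punctured follicle can release were read beside these groups. Oocyte markers stood above the GFP mean by 1.73, 0.10 and 0.04 on the arrays labelled WNT4, and 0 of 15 were at p under 0.05. Their mean level was 6.69 to 8.13 on the arrays labelled WNT4 and 6.35 to 7.18 with GFP. Theca and stroma markers stood at 0.39, -0.23 and 0.03 (mean level 6.66 to 7.55 against 6.65 to 7.05), again with 0 of 14 at p under 0.05. Leukocyte markers stood at -0.25, -0.03 and 0.22 with 1 of 14 lower, which was Laptm5. Endothelial, surface epithelial and erythrocyte markers had mean levels under 6.1 on every array of both groups. The part of oocyte and stromal RNA in the values of WNT4 1 was not tested.

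Adhesion and matrix genes differed in both directions. Of all genes 12.6% were higher and 4.46% lower. Of 30 integrins and adhesion receptors 4 were higher (13.3%) and 5 lower (16.7%), with a median of -0.01. The share higher was thus near that of all genes. Itgb8, an integrin subunit that activates latent TGF-beta, read 6.34, 5.98 and 6.30 against 4.40, 4.86 and 5.06 (-1.43 ± 0.23). Nectin2 and F11r, which build cell-cell junctions, were higher: Nectin2 read 8.13, 7.78 and 8.0 against 9.03, 8.67 and 8.87 (0.88 ± 0.15), and F11r read 12.36, 12.26 and 12.49 against 13.16, 12.78 and 13.04 (0.62 ± 0.13, or 0.24 after quantile normalization). Of 34 collagens, laminins and other matrix genes 4 were higher (11.8%, again near all genes) and 7 lower (20.6%), with a median of 0.10. Sparc, a matrix glycoprotein, was higher (0.74 ± 0.14, or 0.36 after quantile normalization), with its probe sets from -0.49 to 0.74. Thbs1, thrombospondin 1, read 11.08, 12.25 and 12.50 against 9.50, 9.92 and 11.24 (-1.72 ± 0.47), with WNT4 3 above GFP 1. Lama5, a laminin chain of basement membranes, read 8.25, 8.19 and 8.13 against 7.54, 7.76 and 7.91 (-0.45 ± 0.11). Col11a1, a fibrillar collagen chosen after its values were seen, had the largest difference of the list (-2.43 ± 0.73). Ilk, the kinase that links integrins to actin, also chosen afterwards, read 10.42, 10.42 and 10.43 against 11.37, 11.05 and 11.27 (0.81 ± 0.10, adjusted p = 0.0691).

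Antigen presentation genes were higher on all 3 arrays. MHC class I molecules display peptides cut by the immunoproteasome and pumped by the TAP transporter, and interferons raise their genes. Of 13 genes 10 were higher and 0 lower, before and after quantile normalization, with medians of 0.97 and 0.68. That share was 76.9% at a median level of 8.29, against 20.5% of all genes with a mean of 8 to 10. The list stood at 1.35, 0.52 and 1.02 on the arrays labelled WNT4, and without any 1 of them its median was 0.73 to 1.21. Tap1 read 7.83, 7.46 and 7.63 against 9.49, 8.83 and 8.68 (1.36 ± 0.20). Psmb8, an immunoproteasome subunit, read 7.52, 7.15 and 7.18 against 8.63, 8.30 and 8.36 (1.15 ± 0.17). B2m, the light chain shared by class I molecules, read 11.60, 11.65 and 11.66 against 13.44, 12.45 and 13.13 (1.37 ± 0.24). Tap1, Psmb8 and B2m were taken for their low p and had all arrays apart. For them WNT4 minus Cre was 0.78 ± 0.20, 0.62 ± 0.17 and 0.79 ± 0.24.

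The wider stress lists leaned on WNT4 1 and WNT4 3. Of all genes 12.6% were higher. That share was 9.37% at means of 6 to 8, 20.5% at 8 to 10 and 37.4% at 10 and above. ER chaperones and degradation factors had 22 of 27 genes higher (81.5%, median level 10.51) and stood at 1.70, 0.30 and 1.21. Their median was 1.05, or 0.67 after quantile normalization, where 18 were higher. Interferon genes had 18 of 30 higher (60.0%, median level 6.41) and 1 lower and stood at 1.91, 0.21 and 0.73. Their median was 0.94, or 0.89 after quantile normalization, where 17 were higher. Antioxidant genes of the NRF2 pathway had 12 of 21 higher (57.1%, median level 10.55) and stood at 0.67, 0.20 and 1.23. Their median was 0.64, or 0.39 after quantile normalization, where 5 were higher. The metal-binding Mt1 read 12.36, 12.19 and 12.28 against 13.51, 13.00 and 13.51. Targets of p53 had 17 of 27 higher (63.0%, median level 8.76) and were the most even of these lists, at 0.75, 0.61 and 0.48. Their median was 0.73, or 0.50 after quantile normalization, where 14 were higher. Btg2, an antiproliferative p53 target, read 8.58, 8.34 and 8.80 against 10.30, 9.85 and 10.19 (1.54 ± 0.21, adjusted p = 0.0842).

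Hypoxia and glycolysis genes had the highest median of the 55 lists, 1.11. Yet 2 of 27 were higher at p under 0.05 (7.41%), against 12.6% of all genes. The list stood at 0.68, 0.15 and 2.82 on the arrays labelled WNT4 and at -0.06, 0.14 and 2.36 on the Cre arrays, so WNT4 3 and Cre 3 stood apart, while GFP 3 was at 0.15. Tpi1, a glycolytic enzyme, read 12.06, 11.94 and 12.09 with GFP, 12.83, 12.54 and 14.61 with WNT4 and 12.01, 12.27 and 14.10 with Cre. Without WNT4 3 the list's median was 0.44. Mitosis genes went the other way, with 23 of 24 lower and 0 at p under 0.05: the median was -0.36, and the GFP arrays themselves stood at -0.69, 0.61 and 0.10.

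Early response genes and kinase phosphatases were read next. Of all genes 12.6% were higher, and 20.5% of those with a mean of 8 to 10. Of 27 immediate early transcription factors 10 were higher (37.0%, median level 8.45) and 0 lower. Their median was 0.46, or 0.22 after quantile normalization, where 6 were higher and 2 lower. Klf9, a zinc-finger factor induced by hormones, read 10.56, 10.09 and 9.91 against 11.76, 11.01 and 11.48 (1.23 ± 0.23), with its 3 probe sets of mean at least 6 between 0.78 and 1.31. Jun, an AP-1 subunit, read 9.06, 8.75 and 9.38 against 10.62, 9.78 and 10.65 (1.28 ± 0.31). The MAP kinase list had 7 of 22 higher (31.8%, median level 8.26). Its median was 0.29, or 0.15 after quantile normalization, where 4 were higher. Among the 7 were the phosphatases Dusp4 (0.84 ± 0.20) and Dusp16 (0.98 ± 0.26), which remove phosphate from MAP kinases. Clock genes had 3 of 18 higher (16.7%), near the share of all genes, and 2 after quantile normalization. Of these, Nfil3 read 6.90, 6.70 and 6.82 against 8.71, 7.63 and 7.93 (1.28 ± 0.26), and Arntl, which encodes the activator BMAL1, read 8.23, 7.67 and 7.55 against 9.08, 8.46 and 8.81 (0.97 ± 0.23).

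Secretory and lysosomal genes had many higher members, fewer of them after quantile normalization. The shares were 66.7% and 55.6%, against 37.4% of all genes with a mean of 10 and above. Of 36 genes of COPI and COPII vesicles and the translocon 24 were higher and 0 lower, with a median of 0.47 that was 0.13 after quantile normalization, where 6 were higher. Sec24d, which selects cargo for COPII vesicles, read 9.98, 9.46 and 9.96 against 10.77, 10.33 and 10.96 (0.89 ± 0.25). Of 36 lysosome and autophagy genes 20 were higher and 0 lower, with medians of 0.39 and 0.09, and after quantile normalization 7 were higher and 1 lower. Atp6v0d1, a subunit of the proton pump that acidifies lysosomes, differed by 0.71 ± 0.12, or 0.44 after quantile normalization, and Ctsd, the protease cathepsin D, read 11.74, 11.64 and 12.14 against 12.65, 12.40 and 12.65 (0.73 ± 0.14, or 0.37).

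For ribosomal proteins, the respiratory chain and the proteasome the size of the difference moved with the scaling. Of all genes with a mean of 10 and above 37.4% were higher. Of 30 ribosomal protein genes 23 were higher (76.7%), of 39 respiratory chain genes 24 (61.5%) and of 31 proteasome genes 13 (41.9%). In each of these lists 0 were lower. Their medians of 0.48, 0.37 and 0.31 became -0.01, -0.00 and -0.02 after quantile normalization, where 0, 1 and 1 genes were higher, and were 0.33, 0.21 and 0.16 with arrays centred on the upper quartile. Rpl19 read 13.24, 13.29 and 13.52 against 14.31, 13.71 and 13.96, a difference of 0.65 ± 0.15 that was 0.18 after quantile normalization. Psmd8, a proteasome cap subunit, kept more of its difference: it read 11.16, 10.99 and 11.14 against 12.07, 11.69 and 12.17 (0.88 ± 0.13, or 0.54). Across the 55 lists 48 medians lay above 0 and 7 below with the deposited values, and 30 above and 22 below after quantile normalization.

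**Figure D4:**
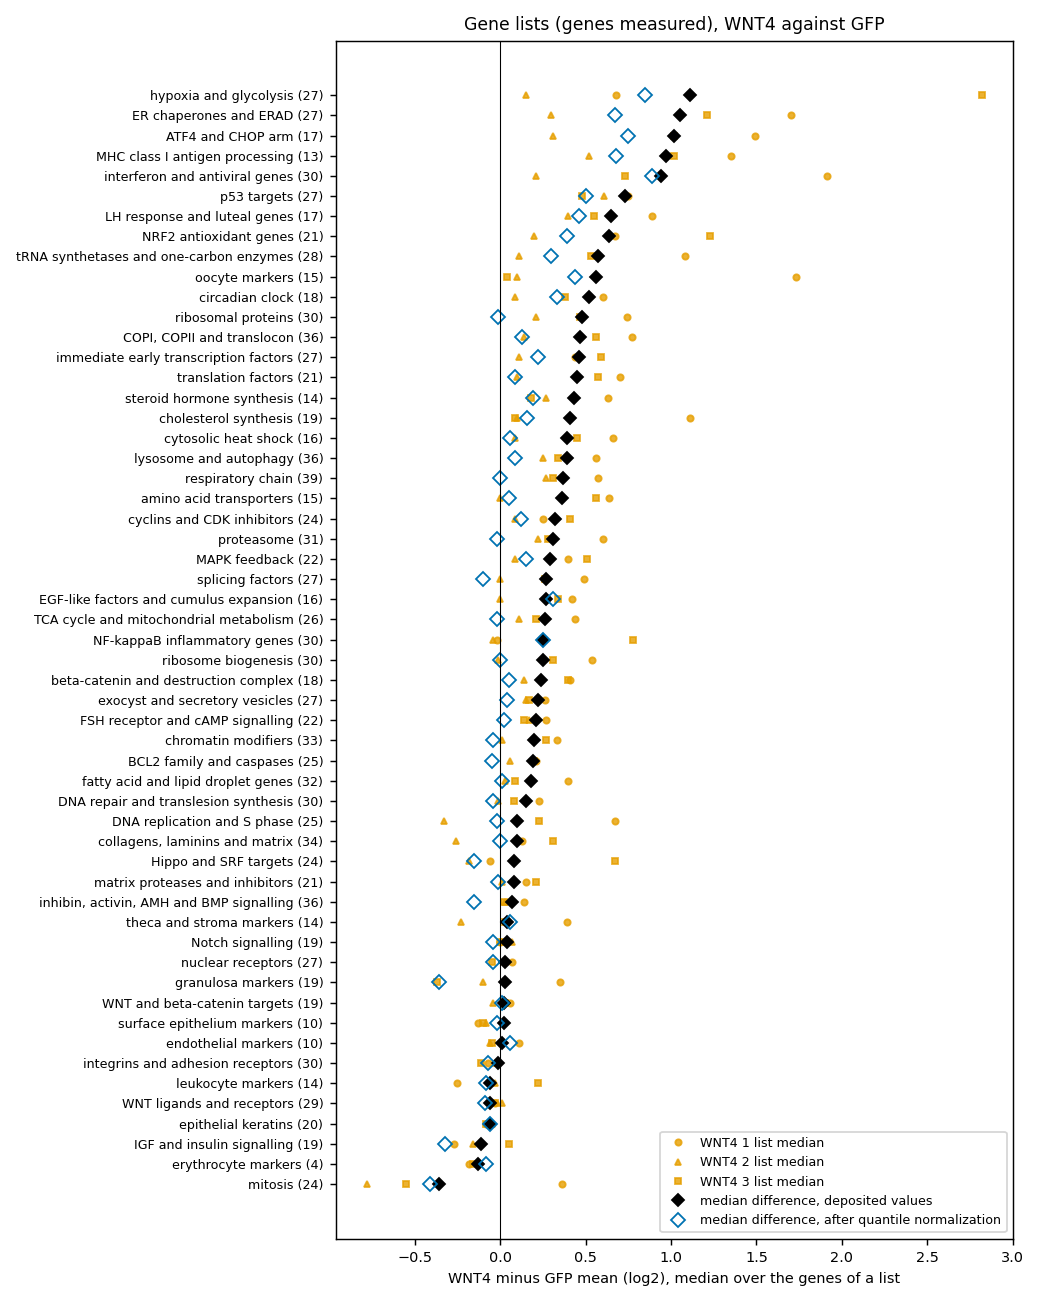
Median difference between the arrays labelled WNT4 and GFP (log2) for 55 gene lists, with the number of measured genes in brackets; black diamonds use the deposited values, open blue diamonds quantile-normalized values, and orange symbols the list's median on each array labelled WNT4 relative to the GFP mean. Hypoxia genes stand at 2.82 on WNT4 3, and the ribosomal, respiratory and proteasome lists move to 0 after quantile normalization.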

How the data were processed

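RNA from 9 samples was hybridised to Affymetrix mouse arrays. The deposited log2 expression values came from RMA according to the authors, per the submitters' processing notes, which name no version. RMA corrects background, quantile-normalizes probes and summarises each probe set, so much of any difference in total signal is already removed. No array scans were used here, and array number limits the precision.

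Of 45101 probe sets 64 controls were left out and 45037 tested. Names came from the platform annotation, updated by Entrez ID through a RefSeq table (34741 of 34945 probe sets with 1 symbol matched; 932 had several symbols and 9160 none). All 9 arrays entered a linear model without covariates (limma 3.58.1, R 4.3.3), with moderated two-sided tests on 6 residual plus 2.8 prior degrees of freedom; the code was tested on simulated data. With 3 arrays against 3, an exact permutation test cannot go below p = 0.1. The comparison and the 55 gene lists (1229 of 1321 genes measured) were chosen with earlier results of these data known. Lists were not tested: they are described by counts and medians.

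The genes named were every called gene, the 12 with the largest difference each way among genes of mean at least 6, p under 0.01 and no overlap, the 8 each way with the largest median among genes whose 3 or more probe sets of mean at least 5 agree, the 3 lowest-p genes of every list, and Wnt4 and Ctnnb1. The text marks any other gene. Same-numbered arrays of WNT4 and GFP deviated from their group means with correlations of -0.08, 0.01 and 0.35, so numbers were not taken to pair them. The Cre arrays were not part of that check, and Cre 3 and WNT4 3 were each other's most correlated arrays (0.9952). Whether the numbers mark a shared preparation was not tested. Alternatives were another scaling (quantile, median, upper quartile), a filter on dim probe sets, other fits and leaving out each array.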

Additional observations from a re-analysis of the deposited data

How the results depend on the processing

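Main counts were 7 called probe sets, 5870 at p under 0.05 before adjustment and 6655 without overlap. The number called was 0 with the 6 arrays alone or without the 3 arrays numbered 3, 1 with an intensity trend, 3 after quantile normalization, 15 among probe sets of mean at least 6, 17 after centring on the upper quartile or with 1 probe set per gene, and 32 at adjusted p under 0.1; median centring and array weights gave 7. With the replicate number as a block it was 10, and 6723 at p under 0.05. Leaving out 1 array gave 0 to 748 called and 3486 to 7578 at p under 0.05. That count was 3737 among probe sets of mean at least 6 and 2905 with 1 probe set per gene, where fewer were tested, and 4407 of mean at least 6 did not overlap. Of those at p under 0.05, 4109 of 5870 were higher, a share that became 48.0% (quantile normalization), 80.1% (median centring) and 30.1% (upper-quartile centring, under which the median over all probe sets was -0.15). Of 3989 values of 200 named differences 3815 kept direction and side of the threshold, 62 lost it, 103 gained it and 9 reversed: Dcn without WNT4 1 (-0.138 to 1.388 over the arrays left out), Kdr after upper-quartile centring (-0.024), Idh3b and Rrm1 after quantile normalization (-0.027 and -0.005), and Wnt4 with array weights (0.000), as the mean of its probe sets (0.450) or without GFP 1, WNT4 1 or WNT4 3 (-0.344 to 0.192 over the arrays left out). The cause was not tested. The medians of the 55 lists had 604 values under other settings. Of these 96 moved by more than the standard deviation of the list's median over the 3 arrays labelled WNT4. That measure is wide where those arrays differ, so a move is harder to count there.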

Other observations

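Genes just outside the threshold, chosen after their values were seen, are given as values. At adjusted p under 0.1 limma held 32 probe sets (0.0711%). N4bp1, an endoribonuclease that restrains cytokine and viral RNA, read 8.34, 8.25 and 8.44 with GFP and 9.98, 9.48 and 9.48 with WNT4 (1.30 ± 0.15, adjusted p = 0.0691), and its 3 probe sets of mean at least 6 ranged from 0.63 to 1.30, with a dim one at -0.34. Ephx1, microsomal epoxide hydrolase, read 11.17, 11.32 and 11.02 against 12.61, 12.28 and 12.09 (1.16 ± 0.15). Lmna, the nuclear lamin A/C, differed by 0.87 ± 0.11 and 0.93 ± 0.13 on a pair of probe sets. Lpin1, an enzyme of triglyceride synthesis, read 9.07, 9.15 and 8.74 against 10.15, 10.03 and 9.79 (1.00 ± 0.13). An unnamed probe set had the second largest of these differences, 9.09, 8.61 and 8.49 against 12.95, 11.45 and 11.79 (3.33 ± 0.42). Another unnamed probe set was lower, 7.49, 8.06 and 7.68 against 6.14, 6.47 and 6.56 (-1.35 ± 0.16).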
